A study of Homo sapiens with 6 samples.

Results

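The chemokine genes CXCL1, CXCL2, CXCL3, CXCL8 and CCL20, the interleukin genes IL1A and IL1B, and the NF-κB target genes NFKBIA, TNFAIP3 and ICAM1 were followed after knockdown of N6AMT1. These 10 genes were taken by symbol from a table of 62438 genes, and all 10 had enough counts to be tested among the 17320 genes that passed the expression filter. The RNA came from a breast cancer line labelled MDA-MB-453. The cells had received either an siRNA that targets N6AMT1 (si-N6AMT1) or, as the control, a scrambled one (si-CN). Each group held 3 libraries, and both siRNAs were given at 10 nM for 48 h with a lipid reagent, so every library comes from transfected cells. The experiment asked which genes change in transcription when N6AMT1, reported to methylate adenine in DNA, is reduced. The study's methods speak of triplicate cells without saying that these were separate cultures, and the labels give only replicate numbers. The p-values therefore measure the spread between these libraries, which may be technical.

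NF-κB is a family of dimeric transcription factors held in the cytoplasm by inhibitory IκB proteins. Interleukin 1, TNF and microbial products activate the IκB kinase, which leads to destruction of IκB and entry of NF-κB into the nucleus. There it drives chemokine, cytokine and adhesion genes together with NFKBIA and TNFAIP3, whose products shut the signal off again. Many of the chemokine and cytokine mRNAs carry AU-rich elements in the 3′ UTR and decay quickly, so their level depends on both synthesis and decay. In breast cancer cells, CXCL8 and the related CXC chemokines are known as attractants of neutrophils and as signals for tumor cell migration.

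Library totals ran from 19739247 to 21289740 counts. N6AMT1 fell from 6.81 ± 0.145 (SD, n = 3) to 3.18 ± 0.312 (SD, n = 3) CPM (counts scaled to library size with TMM factors), a log2 fold change of -1.10 with a standard error of 0.119 and an FDR of 3.65e-07. Here and below, FDR is the Benjamini-Hochberg adjusted p of edgeR's quasi-likelihood test over all 17320 genes, and a gene is called when it is under 0.05. The label of the cells went partly against their markers. The luminal genes TFF3 and PGR had 0 to 2 counts in every library and KRT19 had 8 to 14. Other markers of the luminal list were abundant in si-CN, such as the keratin KRT8 at 599.9 CPM and the epithelial adhesion molecule EPCAM at 316.4 CPM, and the list summed to 1672.8 to 1712.2 CPM in si-CN and 1739.2 to 1760.5 CPM in si-N6AMT1. The basal keratin KRT5 had 15009 to 17114 counts. All 13 basal and mesenchymal markers were detected, with a summed level of 9313.0 to 9420.8 CPM in si-CN and 9309.9 to 9462.2 CPM in si-N6AMT1. Calls among these markers went both ways. Of the 13 basal and mesenchymal markers, 7 were called higher, such as KRT14 by 0.18 and TP63 by 0.14 on the log2 scale. Another 4 were called lower, such as AXL by -0.23, and the median of the list was 0.09. Of the 10 tested genes of the luminal list, 3 were called higher and 1 lower. The shares over all genes tested were 9.78% called higher and 11.5% called lower. The part of these markers in the results below was not tested. Of 10 immune cell markers, 9 had under 10 counts in every library, and PTPRC, the pan-leukocyte marker, had 1 to 3. The remaining one, CD68, a lysosomal glycoprotein, rose by 0.50 on the log2 scale (FDR 1.64e-12) and carried nearly all of the list's summed level, which was 142.3 to 142.9 CPM in si-CN and 196.6 to 205.0 CPM in si-N6AMT1. These are bulk libraries, in which a change in the number of cells that express a gene and a change in its RNA per cell cannot be told apart.

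Of the 10 genes, CXCL2, CXCL8, IL1A and IL1B rose in si-N6AMT1, TNFAIP3 and ICAM1 fell, and CXCL1, CXCL3, CCL20 and NFKBIA were not called. Across the whole table, 9.78% of the genes tested were called higher and 11.5% were called lower. The libraries of the groups did not overlap for the same 4 and 2 genes. In all, 16.8% of the genes tested had every si-N6AMT1 library above every si-CN library, and 18.0% had every one below. On the log2 scale, fold changes of the 10 genes had a median of 0.27, beside 0.004 over all genes tested. The 10 genes were chosen with earlier results of these data known, so neither these counts nor this contrast is independent evidence of a shift. The effects were below 1.5-fold in every called gene of the 10. Over the whole table, the median log2 fold change was 0.19 for called genes that were higher and -0.18 for those that were lower. Together the 10 genes took 0.122% of the counts in each si-N6AMT1 library and 0.110% to 0.111% in the si-CN libraries.

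**Figure D1:**
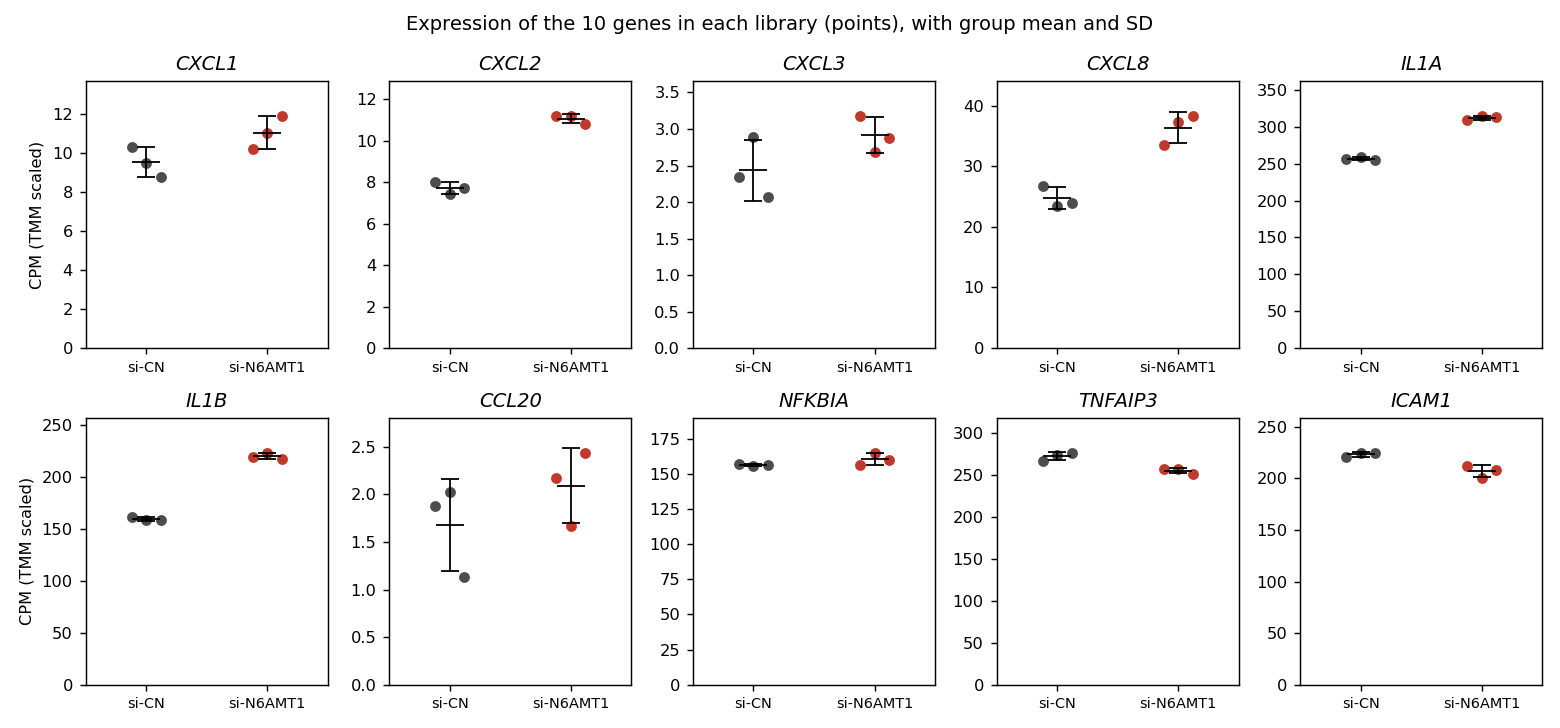
Level of each of the 10 genes in every library, in CPM scaled by TMM on axes that start at 0. Points are libraries, and lines mark group means with bars of 1 SD (n = 3). CXCL2, CXCL8, IL1A and IL1B have all si-N6AMT1 points above the si-CN points, TNFAIP3 and ICAM1 have them below, and the other 4 overlap.

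Promoters of 7 of the 10 genes are printed, since κB sites are the letters through which NF-κB binds DNA: 6 that hold a match and IL1B, which holds none. Not printed are CXCL3 and CCL20, which hold a match, and IL1A, which like IL1B holds none. Sequences are from RefSeq (GRCh38.p14, another build than the hg19 build of the counts) and run 5′ to 3′ over the 200 bases before the start site, and capitals mark matches to the 10-base κB consensus (GGG, a purine, any base, A or T, then pyrimidines and CC) or to GGAATTTCC on either strand.
CXCL1, chr4:73869193-73869392, plus strand: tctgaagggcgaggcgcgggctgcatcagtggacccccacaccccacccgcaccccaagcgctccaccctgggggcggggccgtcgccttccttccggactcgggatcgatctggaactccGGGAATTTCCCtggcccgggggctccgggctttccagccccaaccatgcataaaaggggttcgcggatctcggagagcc
CXCL2, chr4:74099196-74099395, minus strand: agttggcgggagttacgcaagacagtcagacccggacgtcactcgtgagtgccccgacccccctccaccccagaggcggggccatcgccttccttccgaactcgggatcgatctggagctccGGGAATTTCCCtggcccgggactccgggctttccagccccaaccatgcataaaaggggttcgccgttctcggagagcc
CXCL8, chr4:73740369-73740568, plus strand: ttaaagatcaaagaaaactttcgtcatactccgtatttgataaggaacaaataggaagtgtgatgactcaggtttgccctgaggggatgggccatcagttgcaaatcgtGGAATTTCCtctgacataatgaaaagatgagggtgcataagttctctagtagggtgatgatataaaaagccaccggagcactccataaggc
NFKBIA, chr14:35404750-35404949, minus strand: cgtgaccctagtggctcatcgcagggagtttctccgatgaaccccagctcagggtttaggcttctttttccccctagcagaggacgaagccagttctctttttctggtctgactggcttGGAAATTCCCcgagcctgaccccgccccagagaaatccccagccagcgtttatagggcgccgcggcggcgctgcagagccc
TNFAIP3, chr6:137867059-137867258, plus strand: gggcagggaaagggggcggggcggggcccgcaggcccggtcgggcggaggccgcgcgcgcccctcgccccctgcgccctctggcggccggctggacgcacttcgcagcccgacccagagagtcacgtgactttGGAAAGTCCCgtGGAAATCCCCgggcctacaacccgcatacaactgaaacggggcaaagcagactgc
ICAM1, chr19:10270920-10271119, plus strand: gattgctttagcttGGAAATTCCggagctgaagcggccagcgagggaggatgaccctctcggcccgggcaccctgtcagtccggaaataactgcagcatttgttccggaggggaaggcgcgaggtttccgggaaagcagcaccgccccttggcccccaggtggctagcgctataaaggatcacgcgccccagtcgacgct
IL1B, chr2:112836780-112836979, minus strand: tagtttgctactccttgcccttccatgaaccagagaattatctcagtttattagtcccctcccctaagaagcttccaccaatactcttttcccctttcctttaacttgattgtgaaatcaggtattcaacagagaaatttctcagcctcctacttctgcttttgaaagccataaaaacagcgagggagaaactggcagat

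All 10 genes were matched to a promoter in the RefSeq table, which covers 250 bases before to 50 after each start, and IL1A had 2 entries. The 10-base κB consensus was present for CXCL1, CXCL2, CXCL3, CCL20, NFKBIA and TNFAIP3, and in 5.91% of all 35116 promoters of that length. GGAATTTCC, which overlaps the consensus where both match, was present for CXCL1, CXCL2, CXCL3, CXCL8, NFKBIA and ICAM1 and in 0.461% of all promoters. The matches of CXCL1, CXCL2 and CXCL3 lay at nearly the same place, starting 79, 78 and 79 bases before the start site. CXCL8 had its match from 91 to 83 bases before the start, downstream of TGANTCA, the letters bound by AP-1, at 137 to 131 bases before it. TGANTCA was present for CXCL8 and IL1A and in 7.71% of all promoters, and TATAAA for CXCL8, IL1A, CCL20, NFKBIA and ICAM1 and in 11.5%. IL1B had none of these letters in this window, and IL1A had no κB match in either entry. TNFAIP3 had a pair of κB matches on the reverse strand, from 67 to 58 and from 55 to 46 bases before its start.

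Genes with these letters outside the 10 were spread over both directions. Of 1016 other tested genes with the 10-base consensus in the promoter, 13.7% were called higher and 13.7% lower, and their median was 0.01 on the log2 scale. Among all 11719 tested genes with a promoter entry, 11.0% were called higher and 13.5% lower. Of 64 others with GGAATTTCC, 9.38% were higher and 20.3% lower, with a median of -0.01. Within the 10 genes, a κB match was present in CXCL2 and CXCL8, which rose, and in TNFAIP3 and ICAM1, which fell. IL1A and IL1B, which also rose, held none in this window. CXCL1, CXCL3, CCL20 and NFKBIA, which were not called, held a match. A part of these letters in the changes was not tested.

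CXCL8 encodes interleukin 8, the principal neutrophil attractant, which acts through CXCR1 and CXCR2. Its gene lies at chr4:74606236-74609433 on the plus strand of GRCh37. It stood at 26.8, 23.4 and 24.0 CPM in the si-CN libraries and at 33.5, 37.3 and 38.3 CPM in the si-N6AMT1 libraries. The groups did not overlap, and the lowest knockdown library was above the highest control. CXCL8 rose by 0.56 on the log2 scale (SE 0.0579, 95% confidence interval 0.44 to 0.68, FDR 1.98e-07), or 1.47-fold. Of all genes tested, 98.0% had a lower fold change.

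CXCL2, CXCL1 and CXCL3 encode the closely related GRO chemokines, which attract neutrophils through CXCR2 and sit near CXCL8 on chromosome 4. CXCL2 (chr4:74962757-74964913, minus strand) stood at 8.00, 7.41 and 7.73 CPM in si-CN and at 11.2, 11.2 and 10.8 CPM in si-N6AMT1. The groups did not overlap and the knockdown libraries lay close together. The rise was 0.52 on the log2 scale (SE 0.0847, interval 0.34 to 0.69, FDR 8.57e-05), or 43.2%. CXCL1 (chr4:74735110-74737025, plus strand) stood at 10.3, 9.50 and 8.77 CPM in si-CN and at 10.2, 11.0 and 11.9 CPM in si-N6AMT1. The groups overlapped, since the highest control was just above the lowest knockdown library. Its log2 fold change of 0.22 (SE 0.0884, interval 0.04 to 0.40) had an unadjusted p of 0.0217 and an FDR of 0.0858 in edgeR's test, and it was called when the first si-CN library was left out, with an FDR of 0.0486. CXCL3 (chr4:74902306-74904524, minus strand) had 46, 57 and 44 counts in si-CN and 63, 55 and 59 in si-N6AMT1. These groups overlapped too, and the log2 fold change of 0.26 had an interval of -0.09 to 0.61 and an FDR of 0.312, which leaves room for a rise as large as that of CXCL2.

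The transcripts of the GRO genes share sequence, which bears on how reads were divided among them. Of the 31-base words of the reference transcripts, 21.7% in CXCL2, 14.4% in CXCL1 and 9.57% in CXCL3 also occurred in another of the 10 genes, and none did in the remaining 7 genes. The authors' counts are estimates that split shared reads, so the values of these 3 genes are uncertain. Within each library, CXCL8 had 2.47 to 2.74 counts per count of CXCL1 in si-CN and 3.20 to 3.40 in si-N6AMT1. CXCL2 had 0.777 to 0.882 counts per count of CXCL1 in si-CN and 0.902 to 1.09 in si-N6AMT1. Both ratios were higher in every knockdown library, but the difference between the genes' changes was not tested.

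CCL20, which attracts lymphocytes and dendritic cells through CCR6, was the lowest of the 10 genes. It lies at chr2:228670455-228682280 on the plus strand and had 37, 40 and 24 counts in si-CN and 43, 34 and 50 in si-N6AMT1. The groups overlapped widely. Its log2 fold change of 0.32 had a standard error of 0.223, an interval of -0.14 to 0.78 and an FDR of 0.353, so that at this depth neither no change nor a rise beyond that of CXCL8 could be set apart. The receptors of these ligands were at or near 0 in the cells: CXCR1 and CXCR2 had 0 to 1 counts and CCR6 had 0 in all 6 libraries.

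IL1A and IL1B encode interleukin 1α and interleukin 1β, which bind the same receptor and are both inducers and targets of NF-κB. They were far more abundant than the chemokines and had the smallest FDRs of the 10 genes. IL1B (chr2:113587328-113594393, minus strand) stood at 161.0, 158.1 and 158.6 CPM in si-CN and at 218.7, 223.1 and 217.1 CPM in si-N6AMT1. The gap between the groups was many times the spread within either. IL1B rose 1.38-fold, by 0.46 on the log2 scale (SE 0.0240, interval 0.41 to 0.51, FDR 2.86e-12). IL1A (chr2:113531502-113542070, minus strand) stood at 256.8, 258.5 and 254.7 CPM in si-CN and at 308.6, 314.7 and 312.6 CPM in si-N6AMT1. It rose 1.22-fold, by 0.28 on the log2 scale (SE 0.0219, interval 0.24 to 0.33, FDR 2.34e-09), again without overlap. The intervals of the pair did not touch, and within libraries IL1B had 0.611 to 0.627 counts per count of IL1A in si-CN and 0.694 to 0.709 in si-N6AMT1. The mRNA level does not show how much cytokine is processed or released.

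NFKBIA encodes IκBα, the inhibitor that NF-κB itself induces and that returns it to the cytoplasm. The gene (chr14:35870285-35873955, minus strand) stood at 156.9, 155.6 and 156.4 CPM in si-CN and at 156.5, 165.1 and 159.9 CPM in si-N6AMT1. The groups overlapped, with 1 knockdown library below the highest control. Its log2 fold change of 0.04 (SE 0.0259) was not called, with an FDR of 0.335, and the interval bounded the change between -1.04% and 6.61%. Any rise of NFKBIA was therefore well below the point estimates for IL1B or CXCL8 in the same libraries. Per count of NFKBIA there were 0.150 to 0.171 counts of CXCL8 in si-CN and 0.214 to 0.239 in si-N6AMT1.

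TNFAIP3 encodes A20, a ubiquitin-editing enzyme that restrains signalling from the TNF and interleukin 1 receptors to NF-κB. The gene (chr6:138188351-138204451, plus strand) stood at 267.6, 274.1 and 277.1 CPM in si-CN and at 257.0, 257.4 and 251.8 CPM in si-N6AMT1. All 3 knockdown libraries lay below all 3 controls. TNFAIP3 fell by 0.10 on the log2 scale (SE 0.0231, interval -0.14 to -0.05, FDR 0.00382), a change of -6.45%. IL1B had 0.572 to 0.602 counts per count of TNFAIP3 in si-CN and 0.851 to 0.867 in si-N6AMT1.

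ICAM1 encodes the adhesion molecule through which leukocyte integrins hold on to epithelial and endothelial cells. It lies at chr19:10381769-10397291 on the plus strand and stood at 220.4, 225.0 and 224.3 CPM in si-CN. In si-N6AMT1 it stood at 212.0, 200.7 and 207.8 CPM, below every control library. ICAM1 fell by 0.11 on the log2 scale (SE 0.0248, interval -0.16 to -0.06, FDR 0.00219), a change of -7.39%. The falls of TNFAIP3 and ICAM1 were small, and 26.6% and 23.7% of all genes tested had a lower fold change.

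**Figure D2:**
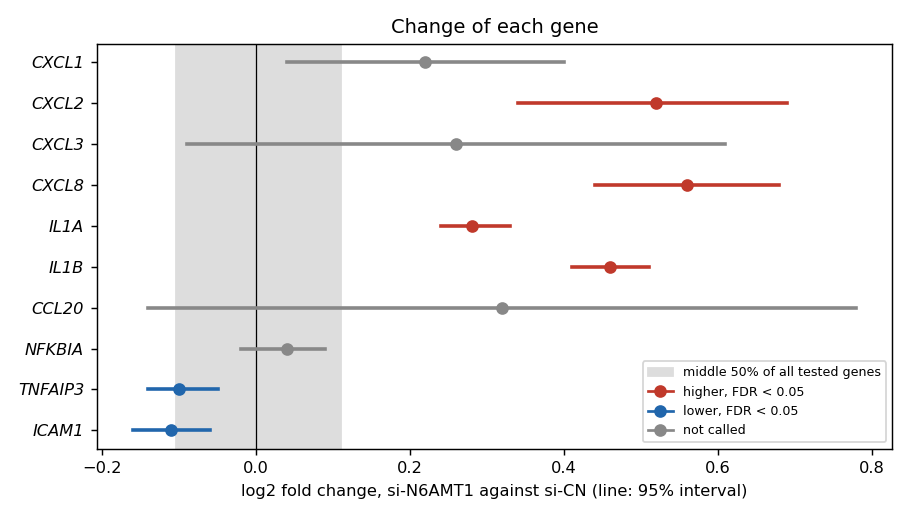
Log2 fold change of each gene, si-N6AMT1 over si-CN, with its 95% confidence interval from edgeR's quasi-likelihood fit (3 libraries per group), and color by call. CXCL8, CXCL2, IL1B and IL1A lie above 0, TNFAIP3 and ICAM1 below, and the intervals of CXCL3, CCL20 and NFKBIA include 0. The interval of CXCL1, 0.04 to 0.40, does not include 0, but its FDR was 0.0858.

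Levels were compared between genes per length, as TPM estimated from each gene's reference transcript. In si-CN, IL1A was highest at 283.1 ± 3.77 TPM (SD, n = 3), followed by IL1B at 235.1 ± 0.794 TPM and NFKBIA at 223.1 ± 2.04 TPM. ICAM1 at 167.4 ± 3.82 TPM and TNFAIP3 at 130.2 ± 3.85 TPM came next. The chemokines were lower, with CXCL8 at 33.5 ± 2.08 TPM, CXCL1 at 18.0 ± 1.24 TPM and CXCL2 at 15.4 ± 0.447 TPM. CXCL3 at 5.05 ± 0.880 TPM and CCL20 at 4.48 ± 1.27 TPM were lowest, and this was the only neighbouring pair in the si-CN order whose libraries overlapped. In si-N6AMT1 the libraries of CXCL1, at 19.6 to 22.5 TPM, overlapped those of CXCL2, at 21.4 to 22.5 TPM, as did those of CXCL3 and CCL20. IL1B reached 323.6 ± 4.02 TPM there and IL1A reached 343.3 ± 0.246 TPM. Without the correction for length, by CPM in si-CN, TNFAIP3 took the first place in the order.

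**Figure D3:**
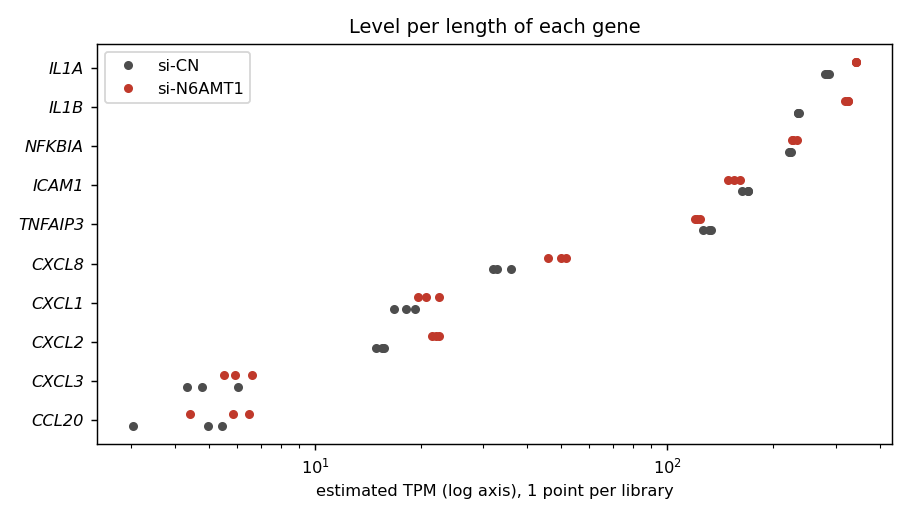
Estimated TPM of the 10 genes in every library on a log axis, ordered by the mean in si-CN. Points are libraries of each group. IL1A, IL1B, NFKBIA, ICAM1 and TNFAIP3 lie above 100 TPM, and the chemokines between 3.04 and 51.6 TPM.

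The 3′ UTRs of these genes were read because AU-rich letters, copies of ATTTA, are known to mark short-lived mRNAs. The density was 14.0 copies of ATTTA per 1000 bases in CXCL2, 10.4 in CXCL3, 9.84 in IL1B, 7.77 in CXCL1 and 7.19 in CXCL8, beside a median of 1.71 over 13085 tested genes. CCL20 had 6.34, NFKBIA 6.00 and IL1A 4.38, whereas TNFAIP3 had 2.51 and ICAM1 1.51. Windows of 30 bases with the densest run are printed for CXCL2, CXCL8 and IL1B, which rose and whose 3′ UTRs hold the longer element TTATTTATT. CXCL1 is printed too, since it shares sequence with CXCL2. The CXCL8 window does not itself hold TTATTTATT, which lies elsewhere in that 3′ UTR. Sequences are from GENCODE v44 transcripts on GRCh37, with copies of ATTTA in capitals.
CXCL2, chr4:74963307-74963336, minus strand: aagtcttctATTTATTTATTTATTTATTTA
CXCL1, chr4:74736382-74736411, plus strand: cttaggagaagtcttctATTTATTTATTTA
CXCL8, chr4:74608825-74608854, plus strand: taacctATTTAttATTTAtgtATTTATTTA
IL1B, chr2:113587580-113587609, minus strand: tgagcaaccgcttccctATTTATTTATTTA

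CXCL1 and CXCL2 share the letters of this run, with 3 overlapping copies of ATTTA in CXCL1 and 5 in CXCL2. The longer element TTATTTATT was present in CXCL1, CXCL2, CXCL3, CXCL8, IL1B and TNFAIP3, and in 9.82% of all genes with a 3′ UTR of at least 50 bases. Of these genes, CXCL2, CXCL8 and IL1B rose, TNFAIP3 fell, and CXCL1 and CXCL3 were not called. A part of the element in these changes was not tested. Among 1279 other tested genes with TTATTTATT, 8.05% were called higher and 19.2% lower (median -0.03 on the log2 scale), beside 11.4% and 14.5% of all 13085 genes with a 3′ UTR. Of 11 AU-rich element binding proteins, 3 rose and none was called lower, with a median of -0.00. Whole-table shares were 9.78% called higher and 11.5% called lower. ZFP36L2 and ZFP36L1, which bind such elements and promote decay, rose by 0.19 (FDR 2e-05) and 0.07 (FDR 0.0181) on the log2 scale, and TIAL1 by 0.08 (FDR 0.0364). The ZFP36L1 call was lost without the second or the third si-N6AMT1 library or the third si-CN library (FDR 0.0603 to 0.0765), and that of TIAL1 without the second or the third si-N6AMT1 or the first or the second si-CN library (FDR 0.121 to 0.146).

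Genes of the NF-κB machinery were described list by list. Beside each list stand the 9.78% of all genes tested that were called higher and the 11.5% called lower. Of the 5 NF-κB subunits, RELA, the main activating subunit, rose from 220.0 to 236.5 CPM, by 0.10 on the log2 scale (FDR 0.00232). NFKB2 rose by 0.09 (FDR 0.0429), a call that was lost in 9 of 13 alternative analyses, among them without the first or the third library of either group (FDR 0.0792 to 0.185). NFKB1 fell by 0.15 (FDR 0.00100) and REL by 0.22 (FDR 0.00887), whereas RELB, at -0.06, was not called (FDR 0.512). The REL call was lost without the third si-N6AMT1 library (FDR 0.0900) or the second si-CN library (FDR 0.0566). The median over the subunits was -0.06.

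In a list of 14 other genes of the IκB family and inhibitors of NF-κB, 5 rose and 3 fell, with a median log2 fold change of 0.07. These counts stand beside 9.78% called higher and 11.5% called lower over all genes tested. NFKBIZ, an atypical nuclear IκB that serves some NF-κB target genes as a coactivator, rose by 0.20 (FDR 0.00136). ZC3H12A, an RNase that degrades inflammatory mRNAs, rose by 0.20 (FDR 0.00298), and NLRC5 by 0.24 (FDR 0.00699). CYLD, a deubiquitinase that dampens the pathway, fell by 0.18 (FDR 0.00125), as did NFKBIB, which encodes IκBβ, by 0.15 (FDR 0.0203) and OTULIN, a deubiquitinase of linear chains, by 0.13 (FDR 0.0141) with overlapping libraries. Calls were lost without the first si-N6AMT1 library for NLRC5 (FDR 0.0542), without the first or the third library of either group for NFKBIB (FDR 0.0584 to 0.0709), and without the second or the third library of either group for OTULIN (FDR 0.0643 to 0.0878).

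Among 24 genes of the IκB kinase complex, other kinases and adaptors, 3 rose and 2 fell, with a median of 0.01. The counts of this list and of the receptors below stand beside 9.78% called higher and 11.5% called lower over all genes tested. MAP3K14, the kinase NIK of the non-canonical pathway, rose by 0.27 (FDR 0.000119), TBK1 by 0.14 (FDR 0.0118), and IKBKG, the regulatory subunit NEMO, by 0.18 (FDR 0.0339) with overlapping libraries. IRAK2, an adaptor kinase of the interleukin 1 receptor, fell from 41.5 to 30.8 CPM, by 0.43 on the log2 scale (FDR 1.76e-07). IRAK1 fell by 0.10 (FDR 0.00707). Calls were lost without the second si-CN library for TBK1 (FDR 0.0680), without the third library of either group for IRAK1 (FDR 0.0573 and 0.0650), and without the first or the third library of either group for IKBKG (FDR 0.0782 to 0.170). Of 12 tested receptors that signal to NF-κB, out of 18 listed, 3 rose and none was called lower. These were TNFRSF21, a death receptor that rose by 0.36 (FDR 2.9e-10) from 153.9 to 197.5 CPM, LTBR, the lymphotoxin β receptor, by 0.21 (FDR 2.56e-06), and TNFRSF1A, the main TNF receptor, by 0.15 (FDR 9.72e-05).

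The receptor through which IL1A and IL1B act was unevenly represented. IL1R1, the ligand-binding chain, was low at 1.24 CPM in si-CN and 1.17 CPM in si-N6AMT1, with a log2 fold change of -0.08 (FDR 0.860). IL1RAP, the shared accessory chain, was abundant at 270.0 and 279.2 CPM and was not called (FDR 0.190), although it passed without the second si-CN library (FDR 0.0452). The receptor antagonist IL1RN had a log2 fold change of 0.45 that was not called (FDR 0.346). Of 9 tested genes of the interleukin 1 family, out of 16 listed, IL18 rose by 0.10 (FDR 0.0155) and IL36G by 0.81 (FDR 0.0345) at the low level of 0.782 to 1.37 CPM, and none was called lower. Their median was 0.08, and 9.78% of all genes tested were called higher and 11.5% lower. The IL18 call was lost without the second si-N6AMT1 or the first or the second si-CN library (FDR 0.0526 to 0.112), and that of IL36G without any 1 of the si-N6AMT1 libraries or the second or the third si-CN library (FDR 0.0640 to 0.168).

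Of 30 other NF-κB targets tested, out of 35 listed, 11 rose, 5 fell and 14 were not called, with a median log2 fold change of 0.09. Over all genes tested, 9.78% were called higher and 11.5% lower. PTGS2, the inducible cyclooxygenase of prostaglandin synthesis, rose by 0.41 (FDR 1.43e-12) from 439.2 to 583.8 CPM. C3, the central complement component, rose by 0.29 (FDR 3.17e-09) and TNFAIP2 by 0.24 (FDR 6.21e-07). GADD45B, a stress-response gene, fell by 0.23 (FDR 4.92e-05), PDGFB by 0.23 (FDR 0.000152) and LIF, a cytokine of the interleukin 6 family, by 0.15 (FDR 0.00992), a call that was lost without the third si-CN library (FDR 0.0595). Of 14 other inflammatory chemokines and receptors, 5 were tested and CCL5, an attractant of T cells and monocytes, was the one called, with a rise of 0.38 (FDR 5.04e-08) from 55.7 to 72.3 CPM. CXCL5, CXCL6, PPBP and CCL2 had 0 counts in all 6 libraries.

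Of 8 tested partners of ICAM1 and other adhesion receptors, 2 rose and 2 fell, with a median of -0.06. Whole-table shares were 9.78% called higher and 11.5% called lower. The ERM proteins link the cytoplasmic tail of ICAM1 to actin. Among them RDX fell by 0.35 (FDR 6.17e-09) and MSN by 0.12 (FDR 5.53e-05), whereas EZR rose by 0.07 (FDR 0.0133), a call that was lost without the first si-N6AMT1 library (FDR 0.0525) or the second si-CN library (FDR 0.0510). MUC1, a mucin that binds ICAM1, rose by 0.09 (FDR 0.00703).

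**Figure D4:**
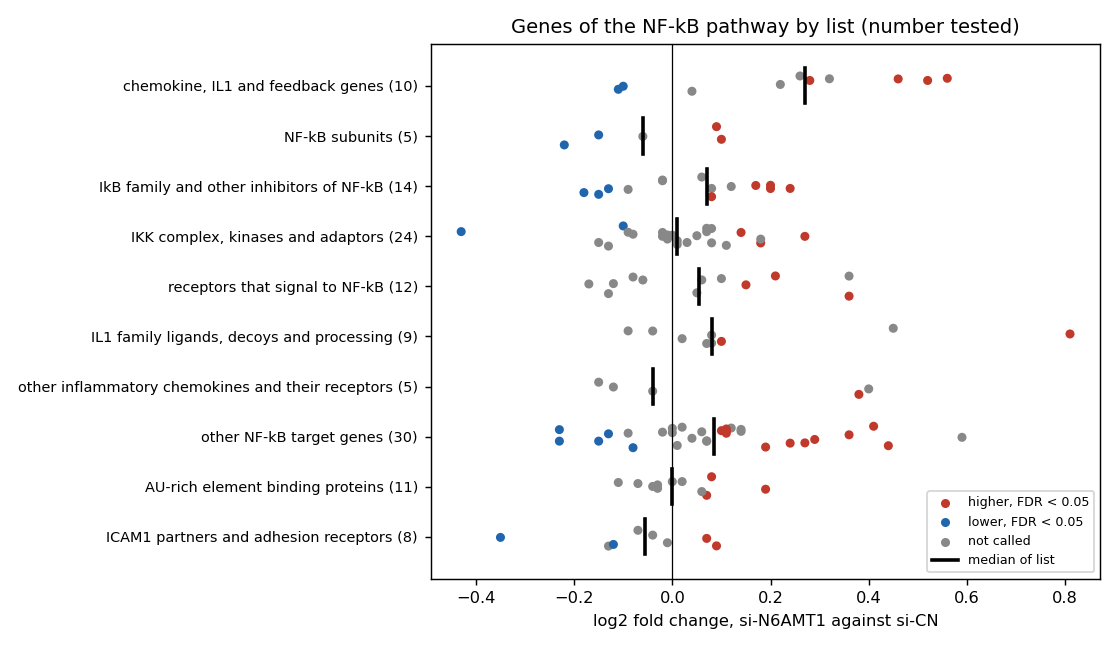
Log2 fold change, si-N6AMT1 over si-CN, of every tested gene in the 10 genes described here and in each pathway list. Points are genes, colored by call, and lines mark medians. Medians lie between -0.06 and 0.09 for the lists and at 0.27 for the 10 genes, beside 0.004 for all genes tested. The genes and lists were chosen with earlier results of these data known.

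The pattern of the CXC chemokine genes over the libraries was compared with that of other genes, as a description. Of 13352 tested protein-coding genes outside the 10, 832 had a Pearson r of at least 0.9 over the 6 libraries with the mean standardised level of CXCL1, CXCL2, CXCL3 and CXCL8. The most alike were ERP29 (r = 0.9958), TSC22D1 (r = 0.9949), UGT1A7 (r = 0.9945), PEX14 and IRF9 (both r = 0.9931). The points of each r are the same 6 libraries, which fall into the 2 treatment groups, so the difference between groups enters every r. Of all genes tested, 16.8% had every si-N6AMT1 library above every si-CN library. PEX14 itself was not called (FDR 0.0614). UGT1A7 shares most of its exons with other UGT1A genes, so its count is uncertain, and its call (FDR 0.0136) was lost without the third library of either group (FDR 0.0504 and 0.0733).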

How the data were processed

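The authors trimmed stranded, paired-end mRNA-seq reads with Trim Galore, estimated transcript abundance with kallisto v0.46.0 against hg19 annotation, and summed it per gene. The deposited values are estimated counts in whole numbers without normalization. The strand option is not given in the sources used here. kallisto divides reads among similar transcripts, so counts of paralogs and overlapping genes are uncertain.

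Of 62438 identifiers, 62149 were matched to a symbol (GENCODE v44 on GRCh37). edgeR (v4.0.16, R v4.3.3) was used for an expression filter with a minimum count of 10, TMM scaling and the quasi-likelihood test, with no covariate and Benjamini-Hochberg adjustment over 17320 genes at 0.05. The SE is the size of a log2 fold change over the square root of F. Intervals are 95%. Exact permutation of 3 against 3 libraries cannot give p below 0.1 and was not used. At 1 CPM a gene has about 20 counts, so low genes carry wide errors. Libraries of a group differed by more than counting noise (chi-square per degree of freedom 1.36 to 1.77) and were kept as replicates. That value does not show that they were separate cultures. The common coefficient of variation estimated by edgeR was 1.85%, and at so small a spread changes of a few percent can be called. The procedure was tested on simulated counts. In these, every gene had the same dispersion, and the changed genes changed more than any called gene of the 10. The simulation therefore does not bear on changes as small as those reported here.

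Alternatives were RLE size factors, no filter, library sizes without mitochondrial genes, DESeq2 v1.42.0 on the same or all genes with a count, limma-voom (v3.58.1), the replicate number as a block, and each library left out. TPM used reference transcript lengths. The genes and lists were chosen with earlier results of these data known. Named genes were all 10 members, N6AMT1, the subunits, the receptors, IL1RN, up to 3 called genes per list and direction with the smallest FDR, and the 5 most alike in pattern. SOD2 and PECAM1 had no matching symbol and were not used here.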

Additional observations from a re-analysis of the deposited data

How the results depend on the processing

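The 4 genes that rose and the 2 that fell were called in the same direction in all 13 alternatives (RLE size factors, no filter, library sizes without mitochondrial genes, the replicate block, DESeq2 in 2 forms, limma-voom and each library left out). CXCL1 joined them without the first si-CN library, so leave-one-out counts of genes higher ran from 4 to 5. Log2 fold changes ran from 0.52 to 0.62 for CXCL8, 0.49 to 0.54 for CXCL2, 0.45 to 0.47 for IL1B, 0.28 to 0.29 for IL1A, 0.16 to 0.28 for CXCL1, 0.15 to 0.40 for CXCL3, 0.10 to 0.48 for CCL20, 0.02 to 0.06 for NFKBIA, -0.11 to -0.08 for TNFAIP3 (FDR up to 0.0355) and -0.13 to -0.09 for ICAM1 (FDR up to 0.0256). CXCL3 and CCL20 had 24 to 63 counts per library. N6AMT1 ranged from -1.18 to -1.04. Counted over all genes, DESeq2 called 955 higher and 1275 lower on the same genes, and 796 and 1136 on all genes with a count, against 1694 and 1993. Replicate numbers did not pair the libraries (correlations of deviations -0.0381, -0.0422 and 0.00997). With the replicate block, 4 of the 10 genes were higher and 2 lower, and 1522 and 1804 of all genes, and the calls of NFKB2, ZFP36L1 and EZR were lost.

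Of 43 other named genes, 25 kept their call or lack of one in every one of these alternatives that gave an adjusted p. Calls were lost in 9 for NFKB2, 7 for TIAL1, 6 for OTULIN, NFKBIB and IKBKG, 5 for IL18 and IL36G, 4 for ZFP36L1, 3 for REL, TBK1, LIF and EZR, 2 for NLRC5, IRAK1 and UGT1A7, and 1 for ZC3H12A and MUC1, and IL1RAP gained one. DESeq2 gave an NA adjusted p in both forms for 6 genes (CXCL3, CCL20, IL1R1, IL1RN, IL36G and UGT1A7), and these stayed out of the counts. Counts moved by over 1.5 times in some alternatives for the subunits (2 to 1 in each direction) and the IκB family and inhibitors (5 to 1 higher, 3 to 1 lower). They also moved for kinases and adaptors (3 to 1 higher, 2 to 1 lower), the interleukin 1 family (2 to 0 higher) and other targets (5 to 3 lower). So did those of AU-rich element binding proteins (3 to 1 higher) and ICAM1 partners (2 to 1 higher). The causes were not tested.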
